A study of Mus musculus with 8 samples.

Results

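Collagen genes of the mouse were followed in RNA sequencing of c-kit+ acute myeloid leukaemia cells. Members were all rows of the deposited gene table with a symbol made of Col, a number, the letter a and a number, and 43 of the 31574 rows matched. A collagen gene under another symbol is not among them, such as Col26a1, which has a row under its older symbol Emid2. All 43 had at least 2 libraries above the lowest value that the table can hold, so all 43 entered the fit of 18051 rows. The 8 libraries came from bone marrow of the femur and tibia of C57BL/6 mice and fell into 4 groups of 2. All library titles carry the word Moz, which the labels do not explain. Ezh1-null tamoxifen cells were Ezh1-/- Ezh2-/-, Ezh1-null oil cells Ezh1-/- Ezh2+/+, Ezh1-present tamoxifen cells Ezh1+/+ Ezh2-/- and Ezh1-present oil cells Ezh1+/+ Ezh2+/+, each by the genotype label. The series' design text gives the oil groups as Ezh2 flox/flox, the intact conditional allele, and the tamoxifen groups as deleted for it. Tamoxifen groups had 5 intraperitoneal doses of 10 mg/kg/day in corn oil, oil groups had corn oil, and RNA was taken 7 days after treatment. Tamoxifen and Ezh2 deletion therefore cannot be told apart, and neither can Ezh1 genotype and the leukaemia it was studied in. The labels name no recombinase or promoter that carries out the deletion, and do not say whether 2 libraries of a group are separate animals or leukaemias, so each p measures only the spread between these libraries. Ezh1 and Ezh2 are the alternative catalytic subunits of Polycomb repressive complex 2, which methylates histone H3 at lysine 27 and holds genes silent.

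Collagens are the main structural proteins of the extracellular matrix, and each is built of chains that wind around one another in a rope-like helix and are trimmed and cross-linked outside the cell. Fibrillar collagens make fibrils, the FACIT collagens coat them, collagen IV makes the network of basement membranes, collagen VI makes beaded filaments, and a few collagens sit in the cell membrane. In bone marrow they are made mostly by stromal, endothelial, bone and cartilage cells. Blood cells make few of them.

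Values are log2 normalized reads, with the median of each gene over the 8 libraries set to 0, so a gene's level is not known unless libraries lie at the floor of 1 normalized read. Such a floor was seen in 13 of the 43 genes, for which levels are given in normalized reads. The other 30 genes were above the floor in all or all but 1 library. Depth was highest in Ezh1-present tamoxifen replicate 1, where 1 read counted as 0.746 normalized reads, and lowest in Ezh1-null oil replicate 1, where it counted as 1.24. Ezh1 was lower in Ezh1-null cells by a log2 change of -3.17 ± 0.10 after tamoxifen and -3.53 ± 0.10 in oil, while the change of Ezh2 after tamoxifen, -0.47 ± 0.08 without Ezh1 (adjusted p = 0.0554) and -0.18 ± 0.08 with it (adjusted p = 0.293), did not pass. Gene totals do not resolve the deleted exons. All 7 markers of c-kit+ myeloid leukaemia cells were above the floor in all 8 libraries. In each treatment 5 of the 7 were called higher in Ezh1-null cells (median change of the 7 0.86 after tamoxifen, 1.26 in oil). Of all rows, 6.77% were called higher after tamoxifen and 12.5% in oil. Among them Elane, a protease of promyelocytes, changed by 2.40 ± 0.42 after tamoxifen and 5.74 ± 0.42 in oil, while Flt3, a receptor of early progenitors, was lower after tamoxifen (-2.22 ± 0.50, limma, adjusted p = 0.0493). Genes of B cells, averaged over 4 markers, lay at 1.48 to 4.02 in Ezh1-null and at -2.33 to -1.83 in Ezh1-present libraries. Log2 changes are given ± the SE of a limma fit over all 8 libraries, and a gene is called where its p adjusted over the 18051 rows is under 0.05. Permutation of 2 libraries against 2 cannot give a two-sided exact p under 0.333, so no gene was tested that way.

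Collagen genes varied more between libraries of a group than most genes did. Their median SD was 0.53 in Ezh1-null tamoxifen, 0.33 in Ezh1-null oil, 0.50 in Ezh1-present tamoxifen and 0.35 in Ezh1-present oil libraries, against 0.11, 0.12, 0.14 and 0.13 over all rows tested. One library stood apart. Ezh1-present tamoxifen replicate 2 held the highest value of 19 of the 43 genes, against 15.1% of all rows tested, and Ezh1-present oil replicate 1 held that of 8, against 17.4% of all rows. At the other end, Ezh1-null oil replicate 1 held the lowest value of 13 of the 30 genes without a floor. The share of all rows that were lowest in this library, the one of lowest depth, is not given. That count therefore cannot be called particular to collagen genes.

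**Figure D1:**
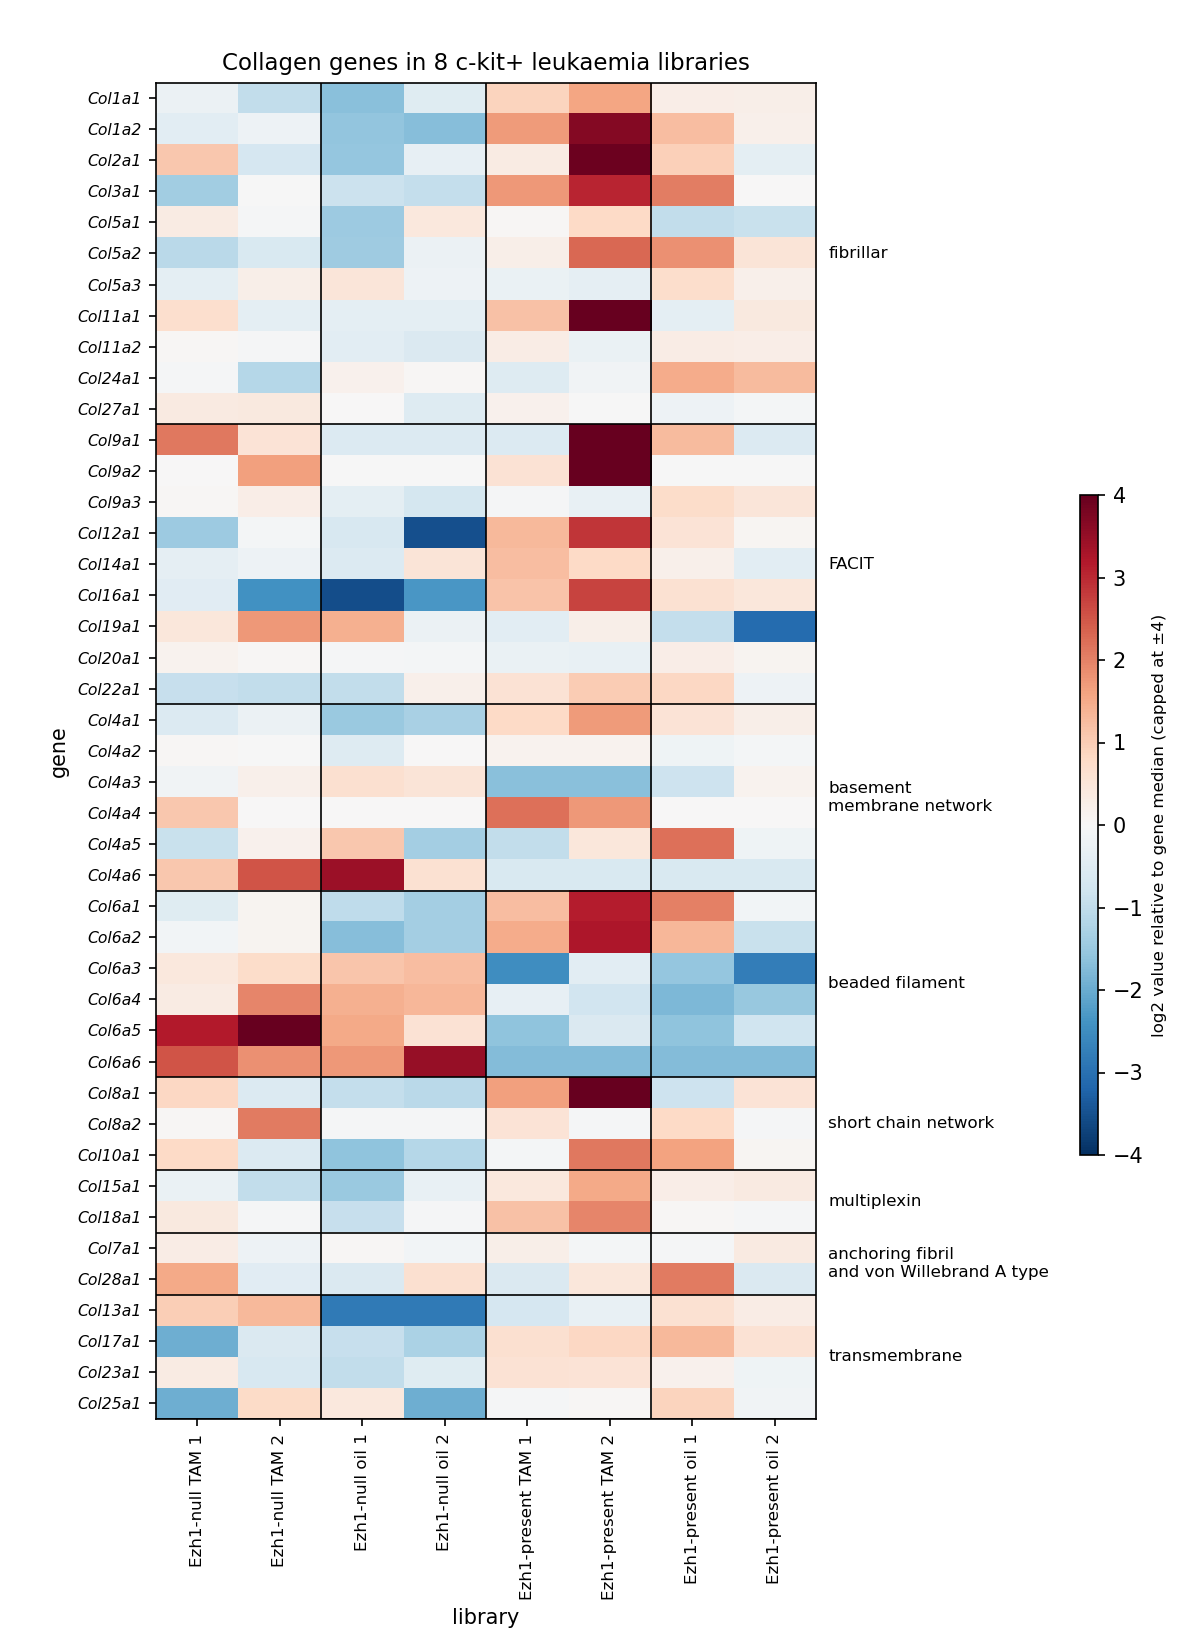
Heat map of the 43 collagen genes (rows, by class) in the 8 libraries (columns, TAM for tamoxifen). Colour is the log2 normalized value relative to the gene's median over the 8 libraries, capped at ±4. The column of Ezh1-present tamoxifen replicate 2 holds the highest value of 19 genes, and Col6a3, Col6a4, Col6a5, Col6a6 and Col4a6 are higher in all 4 Ezh1-null than in all 4 Ezh1-present libraries. Of these, Col6a6 and Col4a6 lie at the lowest value the table can hold in all 4 Ezh1-present libraries and entered the fit only through Ezh1-null libraries.

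Markers of other cell types moved with this library. The 9 stromal and fibroblast markers averaged 1.70 in Ezh1-present tamoxifen replicate 2 and 0.78 in replicate 1, and between -1.05 and 0.22 in the other 6 libraries. The 6 endothelial markers averaged 2.06 and the 6 megakaryocyte and platelet markers 2.57 in replicate 2, again the highest of the 8 libraries. The 4 chondrocyte markers measured averaged 1.36 in Ezh1-present tamoxifen replicate 2 and 1.98 in Ezh1-present oil replicate 1, and the second value rests on Sox9. The cartilage matrix gene Acan lay at 3.59 in Ezh1-present tamoxifen replicate 2 and at the floor (-0.95) in Ezh1-present oil replicate 1, and Matn3 at 1.85 and 1.35 in the same libraries, with Comp at -0.00 and 0.00. Sox9, the chondrocyte transcription factor, stood at 182 normalized reads in Ezh1-present oil replicate 1 and 1.75 in replicate 2, and was at the floor in the other 6 libraries. Lum, a proteoglycan of fibroblasts, was at the floor in 6 libraries and stood at 2.99 and 18.2 normalized reads in the Ezh1-present tamoxifen libraries. Summed levels cannot be given for these lists, since most of their genes have no floor. Markers of blood cells also split by group. For Ezh1 loss after tamoxifen the median change was 2.13 for mature neutrophil markers (0 of 6 called), 2.18 for mast cell and basophil markers (1 of 4 called higher), 4.10 for B cell markers (3 of 4) and -0.59 for erythroid markers (0 of 5). In oil these medians were 4.83 (5 of 6 called higher), 5.17 (3 of 4), 5.95 (4 of 4) and 2.91 (1 of 5). Of all rows, 6.77% were called higher after tamoxifen and 12.5% in oil. The 4 macrophage markers measured had a median change of -0.79 after tamoxifen (2 called lower) and -0.70 in oil (3 called lower), with 1 change above 0 in each. Of all rows, 5.44% were called lower after tamoxifen and 12.4% in oil. Erythroid markers averaged 2.15 in Ezh1-present tamoxifen replicate 2, their highest library. By library, T and NK cell markers lay at 0.83 in both Ezh1-null tamoxifen libraries, -1.21 and -0.96 in Ezh1-null oil, 1.07 and 2.11 in Ezh1-present tamoxifen and -3.13 and -2.40 in Ezh1-present oil libraries. In bulk RNA, fewer cells of a type and less RNA per cell cannot be told apart, and the part of other cells in the collagen values was not tested.

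**Figure D2:**
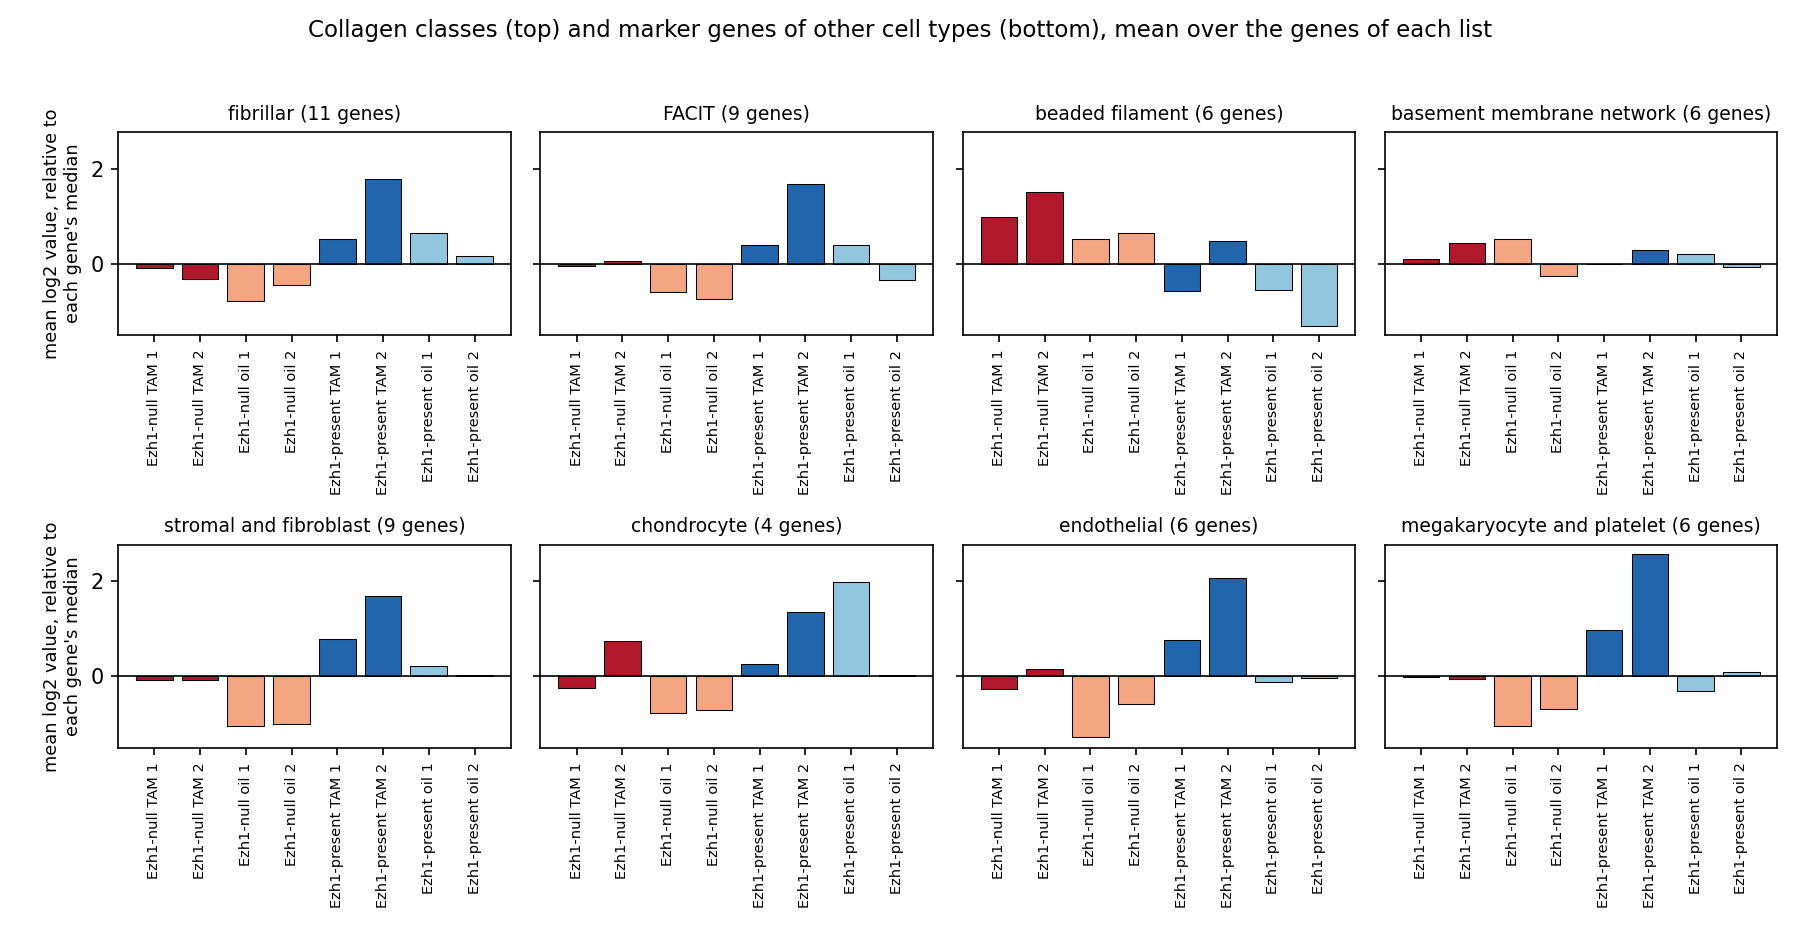
Mean log2 value (y axis, relative to each gene's median) over the genes of 4 collagen classes (top) and 4 marker lists of other cell types (bottom) in each of the 8 libraries (x axis, TAM for tamoxifen, 1 bar per library). Fibrillar collagens (1.77) and FACIT collagens (1.67) are highest in Ezh1-present tamoxifen replicate 2, as are stromal markers (1.70), while the beaded filament genes of collagen VI are higher in Ezh1-null tamoxifen libraries (0.98 and 1.5).

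Loss of Ezh1 went with a split among the collagen VI genes. In oil, the chains Col6a3, Col6a4, Col6a5 and Col6a6 were all higher in Ezh1-null cells, by log2 changes of 2.25 to 3.33 for the first 3 and by at least 2.95 for Col6a6, which is at the floor in Ezh1-present cells, while Col6a1 and Col6a2, the other chains of the classical collagen VI molecule, were not called and had changes of -2.14 ± 0.91 and -1.75 ± 0.88. Membrane collagens Col13a1 and Col17a1, the FACIT collagens Col16a1 and Col9a3, the basement membrane chain Col4a1 and the fibrillar chain Col11a2 were lower. Over all 43 genes 10 were called in oil, 4 higher and 6 lower, or 23.3%, a share near the 24.9% of all rows called in this comparison. Of all rows, 12.5% were higher and 12.4% lower. The median change of the 43 genes was -0.73, or -0.72 with the 8 genes that have a group at the floor set at their limits, and that of all rows -0.04. Groups did not overlap in 7 genes that were higher (31% of all rows) and 19 that were lower (34.7% of all rows), and 17 genes had an unadjusted p under 0.05 (39.8% of all rows). The count fell to 3 without Ezh1-null oil replicate 1 or 2, to 1 without Ezh1-present oil replicate 1, to 4 without replicate 2 and to 8 without any 1 of the other 4 libraries.

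After tamoxifen the same genotype contrast, Ezh1-null against Ezh1-present cells, called 5 of the 43 genes, or 11.6%, against 12.2% of all rows. Col6a5, Col6a6, Col4a3 and Col13a1 were higher (6.77% of all rows were higher) and Col4a1 was lower (5.44% of all rows were lower). The median change of the 43 genes was -0.60, against -0.00 for all rows. Groups did not overlap in 11 genes that were higher (30.7% of all rows) and 19 that were lower (31.8% of all rows), and 22 genes had an unadjusted p under 0.05 (32.3% of all rows). The number called was 2 with Ezh1-null tamoxifen replicate 1 left out, 0 with replicate 2 left out, 2 with Ezh1-present tamoxifen replicate 2 left out, and 3 without any 1 of the other 5 libraries. The groups compared in oil and after tamoxifen share no library, but they share the pair of leukaemia genotypes. Both comparisons also use one spread, estimated over all 8 libraries, so their p values are not separate. Over both treatments the 4 Ezh1-null libraries lay above the 4 Ezh1-present libraries in 5 genes (11.6%, against 16.2% of all rows) and below them in 9 (20.9%, against 14.9% of all rows). Among the 5, Col6a6 and Col4a6 were at the floor in all 4 Ezh1-present libraries. These genes entered the fit only through Ezh1-null libraries, so their separation is no separate support for a difference.

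**Figure D3:**
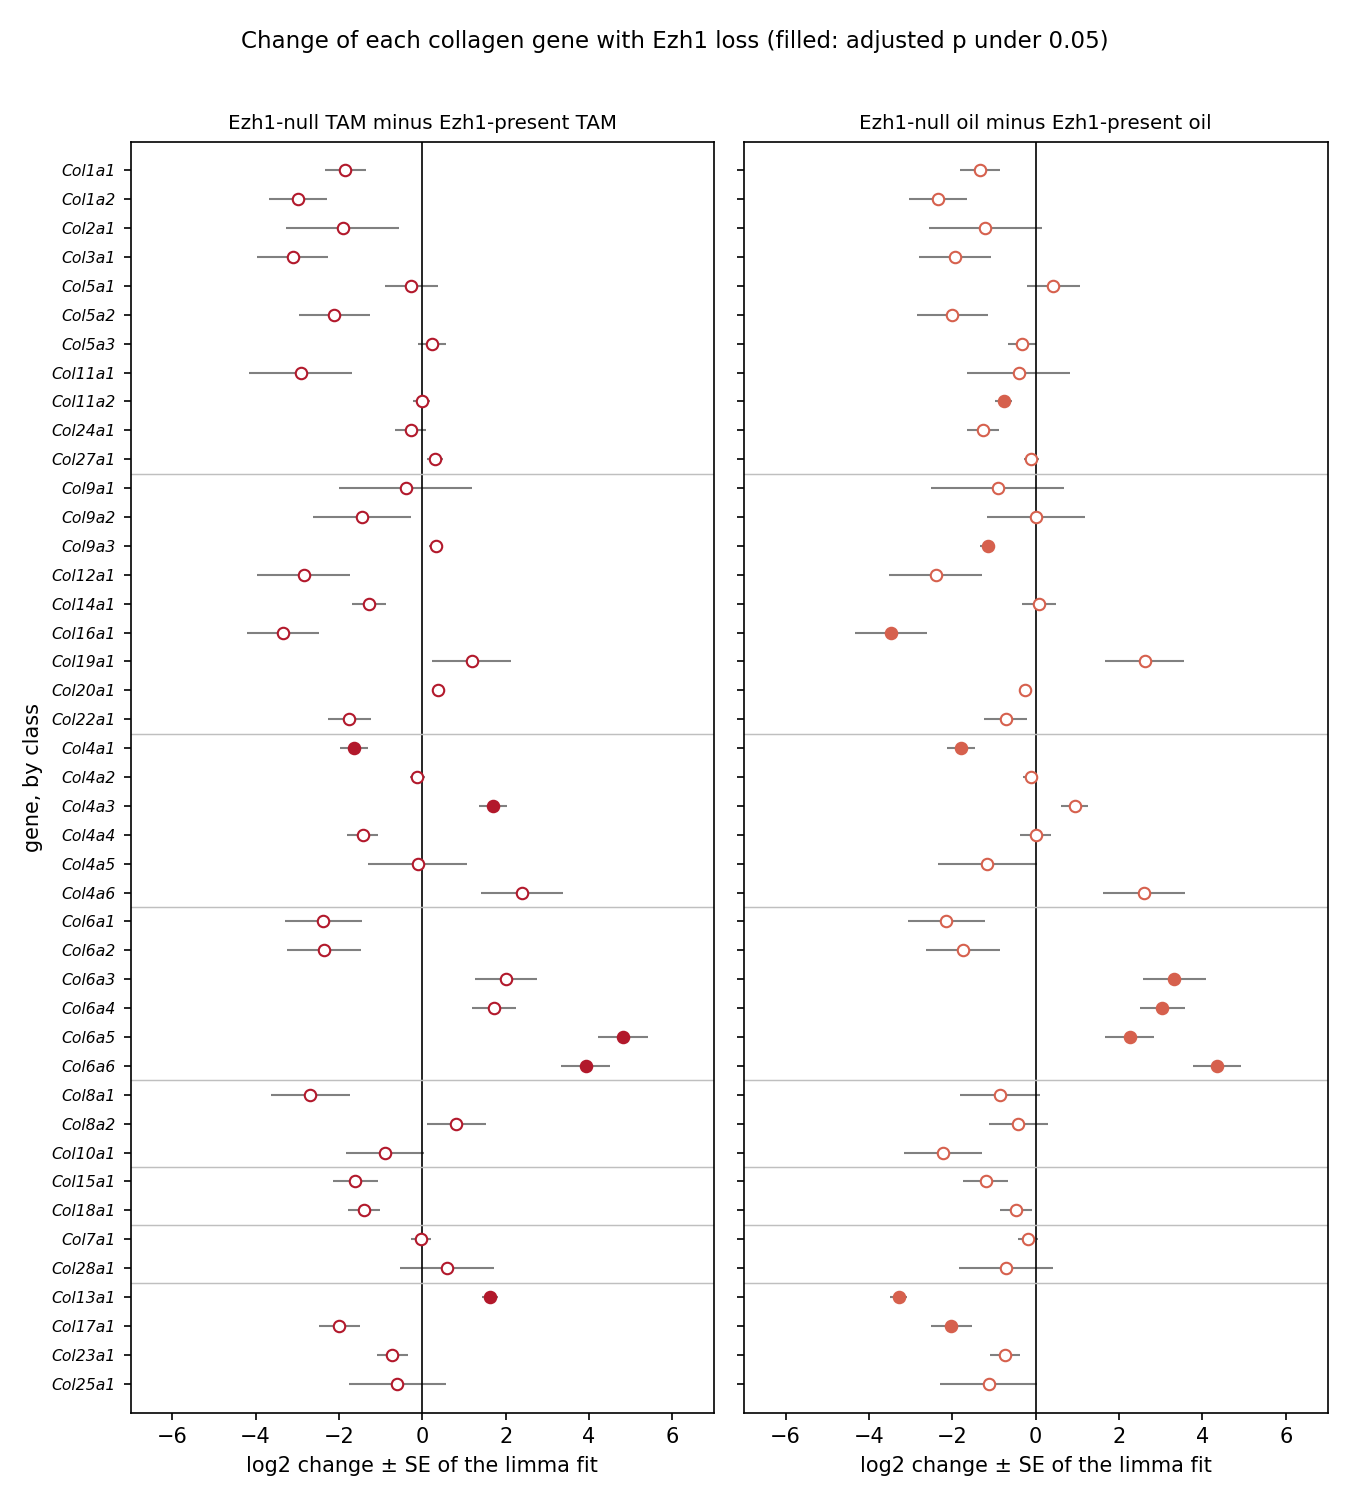
Log2 change with loss of Ezh1 (x axis, ± SE of the limma fit) for each of the 43 collagen genes (y axis, by class as in the heat map), after tamoxifen (left) and in oil (right). Filled points have an adjusted p under 0.05. The collagen VI chains Col6a3 to Col6a6 stand on the right in both panels, and Col13a1 stands at 1.62 after tamoxifen and on the left in oil. Points against a group at the floor are fitted values, where the limits are 2.54 after tamoxifen and 2.95 in oil for Col6a6 and -1.45 in oil for Col13a1.

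Col6a4, Col6a5 and Col6a6 encode chains that resemble the third classical chain, Col6a3, and lie one after another on mouse chromosome 9 (mm10), Col6a6 at 105689417 to 105828085, Col6a5 at 105856070 to 105960643 and Col6a4 at 105990318 to 106096691. Their start regions are shown because these neighbours were higher together in Ezh1-null cells. Each window runs from 250 bases before to 50 bases after the RefSeq start (GRCm38.p6), 5′ to 3′ on the minus strand of the gene, with each CG in capitals. The windows are chr9:105828036-105828335 for Col6a6, chr9:105960594-105960893 for Col6a5 and chr9:106096642-106096941 for Col6a4.
Col6a6: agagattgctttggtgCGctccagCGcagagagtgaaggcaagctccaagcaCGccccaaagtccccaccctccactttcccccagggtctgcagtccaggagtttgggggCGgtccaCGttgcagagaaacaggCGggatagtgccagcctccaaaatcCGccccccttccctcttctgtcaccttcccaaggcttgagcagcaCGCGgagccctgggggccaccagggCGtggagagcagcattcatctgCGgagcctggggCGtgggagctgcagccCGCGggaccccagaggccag
Col6a5: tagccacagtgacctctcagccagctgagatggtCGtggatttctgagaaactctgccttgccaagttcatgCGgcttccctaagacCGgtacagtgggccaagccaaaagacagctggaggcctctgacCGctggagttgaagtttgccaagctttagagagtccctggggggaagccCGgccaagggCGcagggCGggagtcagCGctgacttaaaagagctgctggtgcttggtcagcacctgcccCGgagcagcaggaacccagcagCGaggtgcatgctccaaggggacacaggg
Col6a4: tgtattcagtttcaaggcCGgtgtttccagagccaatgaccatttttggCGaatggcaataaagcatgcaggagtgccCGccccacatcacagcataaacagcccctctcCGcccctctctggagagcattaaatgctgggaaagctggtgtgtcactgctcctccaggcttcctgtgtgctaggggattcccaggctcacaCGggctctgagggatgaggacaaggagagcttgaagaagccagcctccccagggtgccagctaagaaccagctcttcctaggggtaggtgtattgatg
The windows held 14 CG in Col6a6, 10 in Col6a5 and 5 in Col6a4, counts that 36.3%, 43.5% and 62% of the 32851 RefSeq windows of this length reach or pass. The letters GGGCGG, sought on both strands, occurred 2 times in Col6a6, 1 time in Col6a5 and 2 times in Col6a4, and at least once in 35.7% of all windows. TATAAA, sought on both strands, is not in these 3 windows and is in 13.6% of all windows. Among collagen genes, 35 of the 43 matched a gene of this RefSeq set, with 38 windows. Of these 38 windows 23 (60.5%) held GGGCGG and 5 (13.2%) held TATAAA.

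Col6a6 was seen in Ezh1-null cells and was at the floor in all 4 Ezh1-present libraries. It stood at 19.1 and 11.97 normalized reads in Ezh1-null tamoxifen and 11.2 and 37.4 in Ezh1-null oil libraries. Measured against 3 reads per library it was at least 5.81-fold higher with Ezh1 lost after tamoxifen (adjusted p = 0.0219) and at least 7.72-fold higher in oil (adjusted p = 0.00827). Values tied at the floor have no spread, so a p that rests on them can be too small. Col6a6 also entered the fit only through its Ezh1-null libraries, where it is high. Its p values against Ezh1-present cells, in each comparison, are therefore no separate support for that difference. Between Ezh1-null tamoxifen and Ezh1-null oil libraries its values overlapped. The oil call ended without Ezh1-present oil replicate 1, at an adjusted p of 0.05. The tamoxifen call ended at 0.1 and 0.0753 without Ezh1-null tamoxifen replicate 1 and 2, at 0.0847 and 0.08 without Ezh1-present tamoxifen replicate 1 and 2, and at 0.0511 without either Ezh1-present oil library.

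Col6a5 stood highest in the Ezh1-null tamoxifen libraries. It had 27.6 and 57.5 normalized reads there, 8.68 and 4.57 in Ezh1-null oil, 1.00 and 2.02 in Ezh1-present tamoxifen and 1.00 and 1.75 in Ezh1-present oil libraries. The 4 groups fell in that order, without overlap except between the Ezh1-present groups. In Ezh1-present cells these values rest on 2 reads in each treatment. By reads summed over a group and scaled for depth, the ratio of Ezh1-null to Ezh1-present cells was 49.5 after tamoxifen (95% exact interval 13.2 to 416) and 7.41 in oil (1.62 to 68.8), intervals that cover counting error only. The fitted log2 changes were 4.81 ± 0.59 after tamoxifen (adjusted p = 0.0155) and 2.25 ± 0.59 in oil (adjusted p = 0.0482). After tamoxifen the call ended at 0.0536 and 0.068 without Ezh1-null tamoxifen replicate 1 and 2 and at 0.0611 without Ezh1-present tamoxifen replicate 1. In oil it ended without any 1 of the 8 libraries, at 0.061 to 0.186. The change of Col6a5 with tamoxifen within Ezh1-null cells, 2.66 ± 0.59, did not pass (adjusted p = 0.0932).

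Col6a4 is a pseudogene in people but an intact chain in mice. It lay at 0.34 and 1.97 in Ezh1-null tamoxifen, 1.43 and 1.32 in Ezh1-null oil, -0.34 and -0.78 in Ezh1-present tamoxifen and -1.81 and -1.52 in Ezh1-present oil libraries. All 4 Ezh1-null libraries were above all 4 Ezh1-present libraries. In oil Col6a4 was 8.23-fold higher with Ezh1 lost (log2 change 3.04 ± 0.53, adjusted p = 0.0162), and its change after tamoxifen was 1.72 ± 0.53 (adjusted p = 0.0976). The oil call ended without any 1 of the 4 oil libraries, at 0.0641 to 0.0839.

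Col6a3, the long chain of classical collagen VI, lies on chromosome 1 (90766860 to 90843971). It lay at 0.41 and 0.72 in Ezh1-null tamoxifen, 1.10 and 1.23 in Ezh1-null oil, -2.48 and -0.41 in Ezh1-present tamoxifen and -1.55 and -2.78 in Ezh1-present oil libraries. Here too the 4 Ezh1-null libraries were above the 4 Ezh1-present libraries. Col6a3 was 10.1-fold higher without Ezh1 in oil (log2 change 3.33 ± 0.75, adjusted p = 0.0321), a call that ended at 0.0637 to 0.126 without any 1 of the 4 oil libraries or either Ezh1-null tamoxifen library. After tamoxifen the change was 2.01 ± 0.75 (adjusted p = 0.141).

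Col6a2, which pairs with Col6a1 and Col6a3 in the classical molecule, was not called. It lay at -0.11 and 0.11 in Ezh1-null tamoxifen, -1.70 and -1.36 in Ezh1-null oil, 1.48 and 3.23 in Ezh1-present tamoxifen and 1.32 and -0.88 in Ezh1-present oil libraries. Col6a1, its neighbour on chromosome 10, ranged from -1.37 to 3.14, with the highest value in the same library, Ezh1-present tamoxifen replicate 2. So within collagen VI, Col6a1 and Col6a2 were lowest in Ezh1-null oil cells, where Col6a3 was highest. Pik3r4 and Glyctk, which flank the row of Col6a6, Col6a5 and Col6a4, ranged only from -0.20 to 0.21 and from -0.24 to 0.21 over the 8 libraries.

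**Figure D4:**
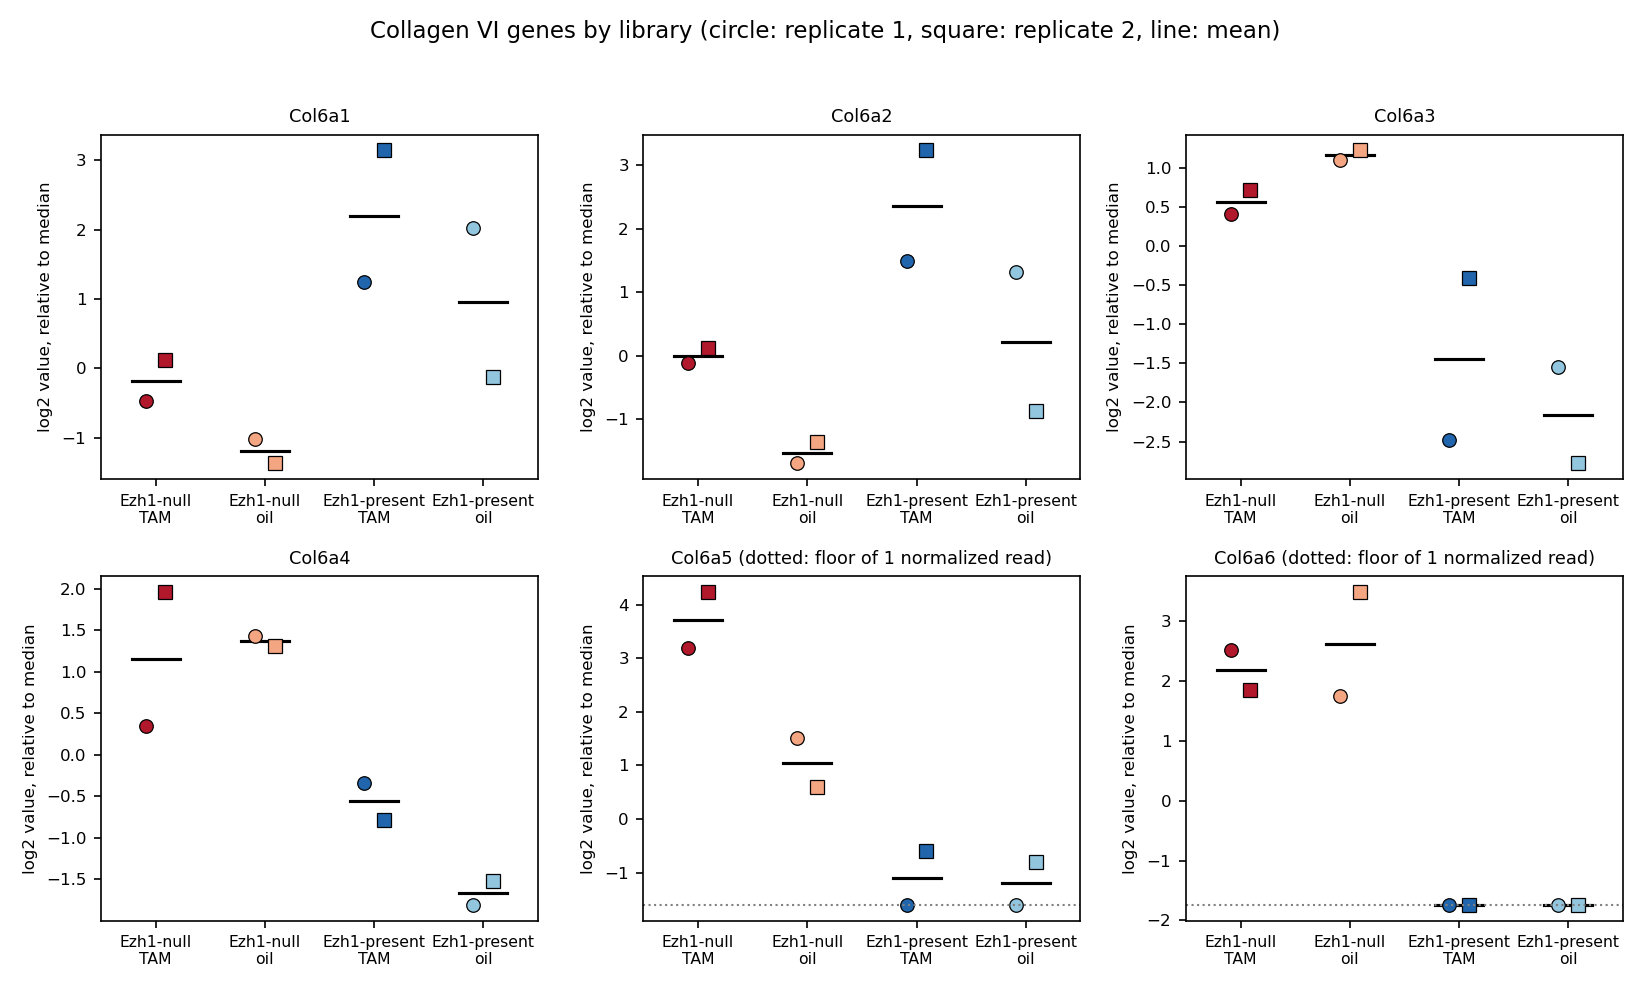
Log2 value relative to the gene's median (y axis) of the 6 collagen VI genes in each library of the 4 groups (x axis, TAM for tamoxifen), with replicate 1 as circles, replicate 2 as squares, the mean of 2 as a line and the floor dotted. Col6a3, Col6a4, Col6a5 and Col6a6 are higher in every Ezh1-null than in every Ezh1-present library, while Col6a1 and Col6a2 are highest in Ezh1-present tamoxifen replicate 2 (3.14 and 3.23).

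Collagen IV, the network of basement membranes, also divided by chain. Col4a1 and Col4a2 together make its common form and are transcribed away from each other on chromosome 8. By the deposited coordinates 2 bases lie between them (mm10, Col4a1 at 11198423 to 11312826 on the minus strand and Col4a2 at 11312829 to 11449287 on the plus strand). Col4a1 lay at -0.55 and -0.25 in Ezh1-null tamoxifen, -1.49 and -1.29 in Ezh1-null oil, 0.79 and 1.70 in Ezh1-present tamoxifen and 0.56 and 0.25 in Ezh1-present oil libraries. All 4 Ezh1-null libraries were below all 4 Ezh1-present libraries, and the change was -1.64 ± 0.33 after tamoxifen (adjusted p = 0.0386) and -1.79 ± 0.33 in oil (adjusted p = 0.018). Col4a2 lay at 0.04 and -0.01 in Ezh1-null tamoxifen, -0.51 and 0.01 in Ezh1-null oil, 0.14 and 0.14 in Ezh1-present tamoxifen and -0.17 and -0.07 in Ezh1-present oil libraries. Its values stayed within a range of 0.65, and its changes of -0.13 ± 0.18 after tamoxifen and -0.12 ± 0.18 in oil did not pass (adjusted p = 0.674 and 0.65). The difference between these neighbouring genes was not itself tested. The call of Col4a1 ended in oil without any 1 of the 4 oil libraries (0.0603 to 0.0908). After tamoxifen it held without Ezh1-present tamoxifen replicate 1 and ended without any 1 of the other 7 libraries (0.0703 to 0.157).

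The shared start region of this gene pair is shown because the values of the 2 genes differ. The windows are chr8:11312777-11313076 on the minus strand for Col4a1 and chr8:11312555-11312854 on the plus strand for Col4a2 (RefSeq, GRCm38.p6), they share 78 bases, and capitals again mark CG. The RefSeq start of Col4a2 differs from the deposited one and lies within the deposited Col4a1. The gap between the deposited genes therefore does not hold for these windows.
Col4a1: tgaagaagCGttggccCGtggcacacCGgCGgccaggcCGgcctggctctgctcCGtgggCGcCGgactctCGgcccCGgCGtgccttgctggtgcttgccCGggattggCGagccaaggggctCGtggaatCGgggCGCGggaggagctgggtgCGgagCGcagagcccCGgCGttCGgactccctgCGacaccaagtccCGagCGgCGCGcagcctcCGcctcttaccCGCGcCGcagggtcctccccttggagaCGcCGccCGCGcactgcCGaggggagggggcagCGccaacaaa
Col4a2: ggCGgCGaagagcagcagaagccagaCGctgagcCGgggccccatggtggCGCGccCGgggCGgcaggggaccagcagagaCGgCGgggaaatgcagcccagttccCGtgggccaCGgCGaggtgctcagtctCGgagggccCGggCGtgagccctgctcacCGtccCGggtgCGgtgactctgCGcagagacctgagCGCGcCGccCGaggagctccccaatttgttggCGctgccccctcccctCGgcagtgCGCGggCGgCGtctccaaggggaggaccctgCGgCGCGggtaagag
Both are rich in CG, with 37 in Col4a1 and 33 in Col4a2, counts reached by 5.58% and 8.56% of all windows. GGGCGG occurred 1 time in the Col4a1 and 3 times in the Col4a2 window, and TATAAA is in neither.

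Col4a3, a chain of the kidney form of collagen IV, was low in all libraries. It had 2.87 and 3.64 normalized reads in Ezh1-null tamoxifen, 4.96 and 4.57 in Ezh1-null oil, stood at 1.00 and 1.00, the floor, in Ezh1-present tamoxifen libraries and had 1.78 and 3.497 in Ezh1-present oil libraries. The Ezh1-null tamoxifen libraries were above the Ezh1-present tamoxifen ones and overlapped Ezh1-present oil. After tamoxifen it was at least 1.24-fold higher with Ezh1 lost, against 3 reads per library (adjusted p = 0.0365). That call rests on few reads. It ended at 0.0699 to 0.136 without any 1 of 6 libraries, holding only without either Ezh1-present oil library. Col4a6 had 3.19 and 8.71 normalized reads in Ezh1-null tamoxifen and 16.1 and 2.29 in Ezh1-null oil libraries and was at the floor in the 4 Ezh1-present libraries. Its change did not pass after tamoxifen (adjusted p = 0.165) or in oil (adjusted p = 0.114). Col4a4, beside Col4a3 on chromosome 1, had at most 4.64 normalized reads, and Col4a5 ranged from -1.36 to 2.22 with no call.

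Of 4 membrane collagens, 2 were called lower in Ezh1-null oil cells, Col13a1 (described with tamoxifen) and Col17a1. Col17a1, a hemidesmosome collagen of epithelia, lay at -1.94 and -0.58 in Ezh1-null tamoxifen, -0.91 and -1.25 in Ezh1-null oil, 0.65 and 0.82 in Ezh1-present tamoxifen and 1.29 and 0.58 in Ezh1-present oil libraries. The Ezh1 genotypes did not overlap. In oil its change was -2.02 ± 0.49 (adjusted p = 0.0392), and after tamoxifen it was -2.00 ± 0.49 with an adjusted p of 0.0597. The oil call ended without any 1 of the 4 oil libraries (0.0784 to 0.159) and without either Ezh1-present tamoxifen library (0.0716).

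Col16a1, a fibril-associated collagen of fibroblasts and muscle, was one of the 6 genes that fell in oil. It lay at -0.44 and -2.41 in Ezh1-null tamoxifen, -3.53 and -2.34 in Ezh1-null oil, 1.13 and 2.69 in Ezh1-present tamoxifen and 0.62 and 0.44 in Ezh1-present oil libraries. The Ezh1-null libraries were all below the Ezh1-present ones, and Col16a1 was 11.1-fold lower in Ezh1-null oil cells (log2 change -3.47 ± 0.86, adjusted p = 0.0414). The change after tamoxifen was -3.34 ± 0.86 (adjusted p = 0.0652). The oil call ended at 0.0516 to 0.15 without any 1 library other than the Ezh1-null tamoxifen ones. Col12a1, a FACIT collagen too, lay at -1.44 and -0.08 in Ezh1-null tamoxifen, -0.63 and -3.53 in Ezh1-null oil, 1.30 and 2.87 in Ezh1-present tamoxifen and 0.55 and 0.08 in Ezh1-present oil libraries, and was not called (adjusted p = 0.176 in oil).

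Col9a3 and Col11a2, chains of cartilage collagens, had smaller and tighter changes. Col9a3 lay at 0.06 and 0.26 in Ezh1-null tamoxifen, -0.38 and -0.70 in Ezh1-null oil, -0.06 and -0.28 in Ezh1-present tamoxifen and 0.74 and 0.49 in Ezh1-present oil libraries. Oil cells without Ezh1 were below oil cells with it, by 2.23-fold (log2 change -1.16 ± 0.17, adjusted p = 0.0106), while after tamoxifen the Ezh1-null libraries were the upper ones, with a change of 0.33 ± 0.17 that did not pass (adjusted p = 0.247). The oil call ended without Ezh1-null oil replicate 2 (0.0502) and Ezh1-present oil replicate 1 (0.0578). Col11a2 lay at 0.06 and -0.06 in Ezh1-null tamoxifen, -0.41 and -0.57 in Ezh1-null oil, 0.30 and -0.27 in Ezh1-present tamoxifen and 0.28 and 0.28 in Ezh1-present oil libraries. It was 1.71-fold lower in Ezh1-null oil cells (adjusted p = 0.047), a call that held only without either Ezh1-present tamoxifen library and ended at 0.0824 to 0.174 without any 1 of the other 6.

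For the fibrillar collagens of fibroblasts, all Ezh1-null libraries lay below all Ezh1-present libraries, but none of the 3 genes was called in any comparison. Col1a1 and Col1a2 make type I collagen, the main protein of bone and scar. Col1a1 lay at -0.24 and -0.99 in Ezh1-null tamoxifen, -1.66 and -0.49 in Ezh1-null oil, 0.88 and 1.58 in Ezh1-present tamoxifen and 0.28 and 0.24 in Ezh1-present oil libraries. Col1a2 lay at -0.41 and -0.19 in Ezh1-null tamoxifen, -1.59 and -1.70 in Ezh1-null oil, 1.69 and 3.66 in Ezh1-present tamoxifen and 1.23 and 0.19 in Ezh1-present oil libraries. Col3a1, the collagen of soft connective tissue, lay at -1.39 and -0.03 in Ezh1-null tamoxifen, -0.84 and -0.96 in Ezh1-null oil, 1.75 and 3.05 in Ezh1-present tamoxifen and 2.04 and 0.03 in Ezh1-present oil libraries. In each of these 3 genes the Ezh1 genotypes did not overlap and Ezh1-present tamoxifen replicate 2 was the highest library. The changes of Col1a2 were -2.98 ± 0.69 after tamoxifen (adjusted p = 0.0536) and -2.35 ± 0.69 in oil (adjusted p = 0.0637). Without Ezh1-present tamoxifen replicate 1 its adjusted p was 0.0383 after tamoxifen. In oil it was 0.0247 without either Ezh1-present tamoxifen library.

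The whole fibrillar class had 9 of 11 changes below 0 after tamoxifen (median -1.85) and 10 of 11 below 0 in oil (median -1.21), with 0 and 1 called. The stromal and fibroblast markers had 9 of 9 changes below 0 after tamoxifen (median -1.13) and 8 of 9 in oil (median -1.30). Of these, 1 and 2 were called lower, Fbln1 in both treatments and Pdgfrb in oil. Of all rows, 5.44% were called lower after tamoxifen and 12.4% in oil. Fbln1, a fibulin of the matrix, changed by -1.02 ± 0.18 after tamoxifen (adjusted p = 0.0314) and -1.60 ± 0.18 in oil (adjusted p = 0.00587). Osteoblast markers had 4 of 6 changes below 0 after tamoxifen and 6 of 6 in oil. Of the 6, 2 and 3 were called lower, beside the same shares of all rows. They were the bone transcription factors Sp7 and Runx2 in both treatments and Alpl in oil. Sp7 had 1.68 and 2.18 normalized reads in Ezh1-null tamoxifen libraries and was at the floor in both Ezh1-null oil libraries. Its oil call rests in part on these floor values, which have no spread. The part of stromal and osteoblast markers in the collagen changes was not tested. Col5a2, a partner of type I collagen, lay at -1.07 and -0.62 in Ezh1-null tamoxifen, -1.43 and -0.23 in Ezh1-null oil, 0.23 and 2.30 in Ezh1-present tamoxifen and 1.82 and 0.52 in Ezh1-present oil libraries. Like type I collagen it separated the Ezh1 genotypes and was not called. Col19a1, a FACIT collagen of muscle and nerve, ran the other way, at 0.45 and 1.72 in Ezh1-null tamoxifen, 1.44 and -0.23 in Ezh1-null oil, -0.44 and 0.23 in Ezh1-present tamoxifen and -0.95 and -3.07 in Ezh1-present oil libraries, with a change in oil of 2.61 ± 0.95 (adjusted p = 0.103).

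With tamoxifen, 1 of the 43 genes was called in Ezh1-null cells, Col13a1, and 0 were called in Ezh1-present cells. Col13a1 encodes a membrane collagen of cell adhesion sites, known at the nerve-muscle junction. It is on chromosome 10 (mm10, 61838498 to 61979108, minus strand). Its start region, chr10:61979059-61979358 (RefSeq, GRCm38.p6, minus strand), is shown with CG in capitals because Col13a1 was the only one of the 43 genes called with tamoxifen.
Col13a1: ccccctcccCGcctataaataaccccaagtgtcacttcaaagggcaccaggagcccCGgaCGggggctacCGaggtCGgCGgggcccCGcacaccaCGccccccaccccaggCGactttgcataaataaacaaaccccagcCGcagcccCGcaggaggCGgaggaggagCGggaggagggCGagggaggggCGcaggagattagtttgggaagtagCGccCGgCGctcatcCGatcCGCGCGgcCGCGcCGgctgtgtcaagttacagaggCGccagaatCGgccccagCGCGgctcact
It held 29 CG, a count reached or passed by 12.9% of all windows, and 1 TATAAA. It has no match to GGGCGG.

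Col13a1 had 14.2 and 17.4 normalized reads in Ezh1-null tamoxifen libraries, stood at 1.00 and 1.00, the floor, in Ezh1-null oil, and had 4.48 and 5.86 in Ezh1-present tamoxifen and 10.9 and 8.74 in Ezh1-present oil libraries. No 2 groups overlapped. Against 3 reads per library it was at least 4.40-fold higher in Ezh1-null tamoxifen than in Ezh1-null oil cells (adjusted p = 0.00387), and it was called in all 17 alternatives run (0.00387 to 0.0379). It was at least 2.74-fold lower in Ezh1-null oil than in Ezh1-present oil cells (adjusted p = 0.00225), also in 17 of 17 alternatives (0.00202 to 0.0317). After tamoxifen it was 3.07-fold higher with Ezh1 lost (log2 change 1.62 ± 0.20, adjusted p = 0.0152), a call that ended at 0.0574 and 0.0691 without Ezh1-null tamoxifen replicate 1 and 2 and at 0.0523 without Ezh1-present tamoxifen replicate 1. In Ezh1-present cells the change with tamoxifen was -0.93 ± 0.20 (adjusted p = 0.1). The tamoxifen changes in the Ezh1 genotypes differed by 4.90 ± 0.28 (adjusted p = 0.0105), the only such call among the 43 genes, against 0.476% of all rows, 0.321% upwards. The difference is 3.07 with the Ezh1-null oil group set at 3 reads per library. The 2 Ezh1-null oil values are tied at the floor and add no spread to the fit, so the SE and p values of Col13a1 can be too small. The call ended without Ezh1-null oil replicate 1 (0.0521) or Ezh1-present oil replicate 1 (0.0515), with both Ezh1-present oil replicate 1 and Ezh1-present tamoxifen replicate 2 left out (0.0824), and with separate variance priors for genes with and without a floor (0.0791).

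**Figure D5:**
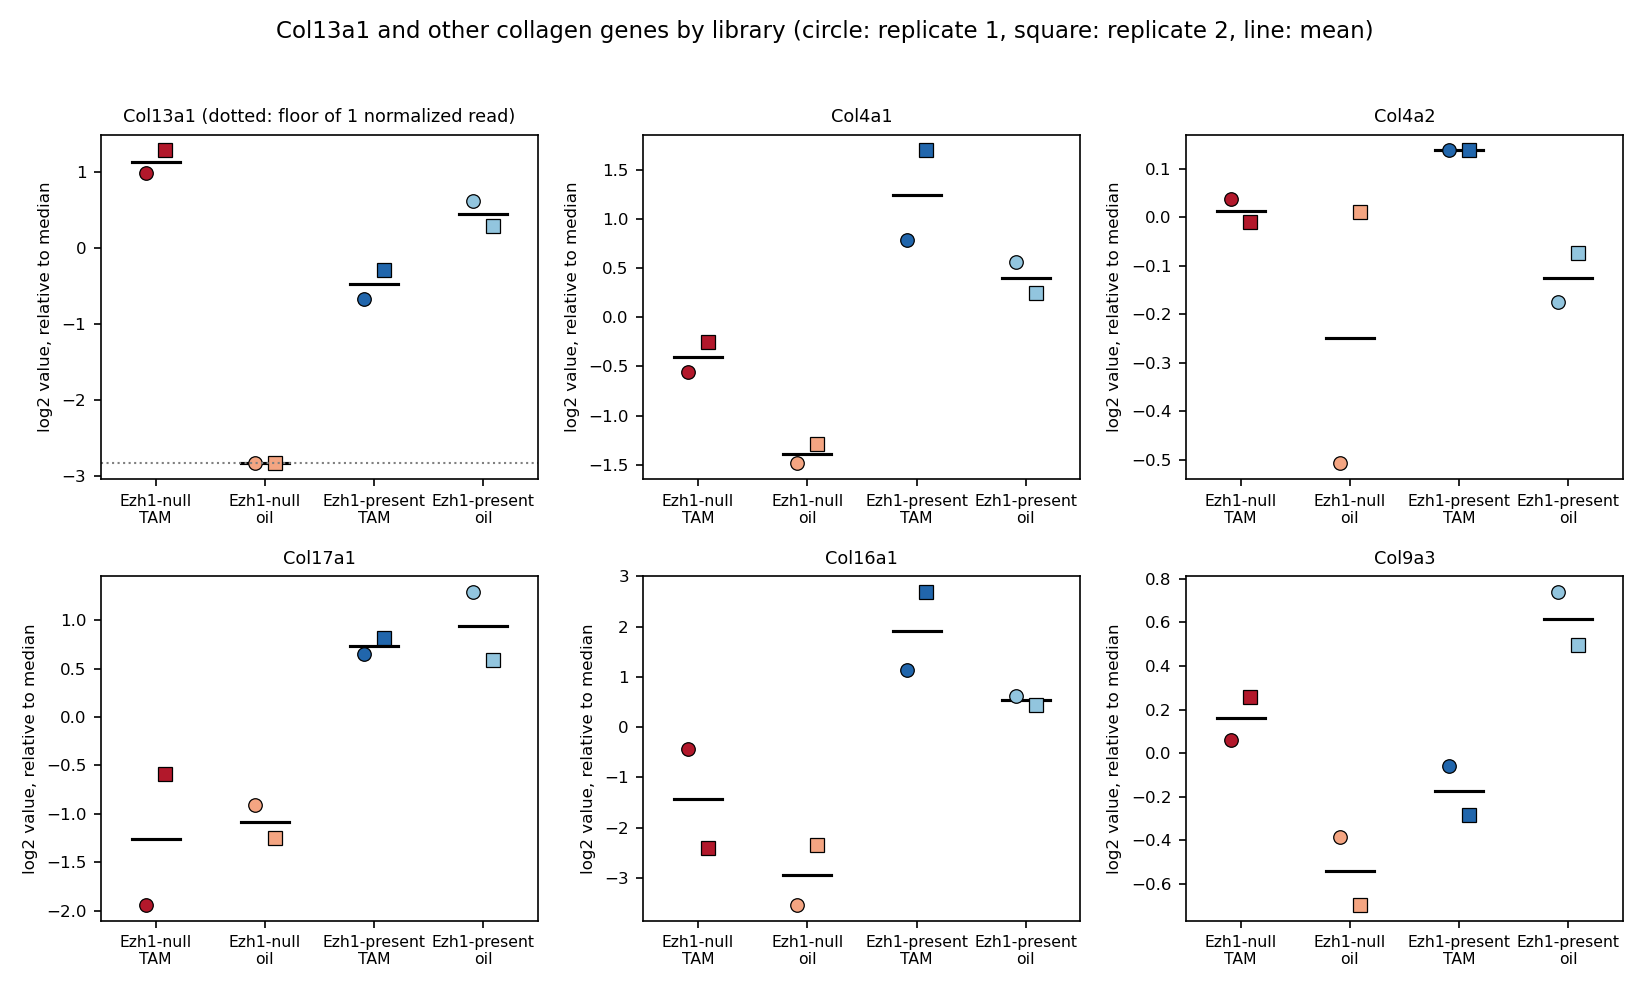
Log2 value relative to the gene's median (y axis) of Col13a1, Col4a1, Col4a2, Col17a1, Col16a1 and Col9a3 in each library of the 4 groups (x axis, TAM for tamoxifen), with replicate 1 as circles, replicate 2 as squares, the mean of 2 as a line and the floor dotted. Col13a1 lies at the floor in both Ezh1-null oil libraries and is highest in the Ezh1-null tamoxifen libraries (0.98 and 1.28).

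In Ezh1-null cells the 1 call among 43 genes (2.33%) stood beside 3.4% of all rows called with tamoxifen, 3.1% higher. An unadjusted p under 0.05 was found for 5 genes (17.9% of all rows). The changes were above 0 in 31 of the 43 genes, with a median of 0.51, or 0.26 with the 6 genes that have a group at the floor set at their limits, against -0.00 for all rows. Groups did not overlap in 15 genes that were higher (24.5% of all rows) and in 3 that were lower (24.8% of all rows). Apart from Col13a1, Col6a5 and Col9a1, the last of which is measured against a group at the floor, the largest changes without overlap were 1.53 ± 0.88 for Col6a2 (adjusted p = 0.453) upwards and -0.71 ± 0.37 for Col24a1 (adjusted p = 0.412) downwards. In the same comparison 1 of 9 stromal markers (Fbln1), 1 of 6 osteoblast markers (Alpl) and 1 of 4 chondrocyte markers were called higher, with median changes of 1.01, 0.54 and 1.18 over these lists, and their part in the collagen values was not tested. Col9a1, a cartilage FACIT collagen with a fitted change of 1.90 ± 1.60 (adjusted p = 0.605) and 0.06 at its limit, had 6.38 and 2.18 normalized reads in Ezh1-null tamoxifen and was at the floor in both Ezh1-null oil libraries, with 24.2 in Ezh1-present tamoxifen replicate 2, 3.56 in Ezh1-present oil replicate 1 and the floor in the other 2.

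In Ezh1-present cells 0 of 43 genes were called with tamoxifen by limma, against 0.903% of all rows, 0.637% higher and 0.266% lower, and 11 had an unadjusted p under 0.05, against 20.6% of all rows. The changes were above 0 in 28 genes, with a median of 0.57 (0.01 for all rows), and groups did not overlap in 19 genes that were higher (28.5% of all rows) and 6 that were lower (25.3% of all rows). With Ezh1-present tamoxifen replicate 1 left out that median was 0.89, with replicate 2 left out 0.16, and with Ezh1-present oil replicate 1 or 2 left out 0.94 or 0.31. Col11a1, a fibrillar cartilage collagen, had 2.13 normalized reads and the floor in Ezh1-null tamoxifen, the floor in both Ezh1-null oil, 2.99 and 40.4 in Ezh1-present tamoxifen and the floor and 1.75 in Ezh1-present oil libraries. Without Ezh1-present tamoxifen replicate 1 it was called, at an adjusted p of 0.0465 for tamoxifen and 0.041 for loss of Ezh1 after tamoxifen, on the one remaining tamoxifen library, which is assumed to vary like the other groups. Col9a2, a FACIT collagen of cartilage, had 1.02 and 3.15 normalized reads in Ezh1-null tamoxifen and 1.49 and 16.2 in Ezh1-present tamoxifen libraries and was at the floor in all 4 oil libraries. For both genes 1 library, Ezh1-present tamoxifen replicate 2, holds the high value.

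Col8a1, a short chain collagen of vessel walls, lay at 0.83 and -0.55 in Ezh1-null tamoxifen, -0.95 and -1.06 in Ezh1-null oil, 1.64 and 4.01 in Ezh1-present tamoxifen and -0.84 and 0.55 in Ezh1-present oil libraries. With tamoxifen its change in Ezh1-present cells was 2.97 ± 0.95 (adjusted p = 0.18). Col18a1, the basement membrane collagen that gives rise to endostatin, lay at 0.38 and -0.05 in Ezh1-null tamoxifen, -0.91 and -0.05 in Ezh1-null oil, 1.17 and 1.94 in Ezh1-present tamoxifen and 0.05 and -0.05 in Ezh1-present oil libraries. Its change with tamoxifen in Ezh1-present cells was 1.56 ± 0.39 (adjusted p = 0.125). Both genes were highest in Ezh1-present tamoxifen replicate 2, and the endothelial markers, at 0.77 and 2.06 in the Ezh1-present tamoxifen libraries, were -0.13 and -0.04 in the Ezh1-present oil libraries. Col24a1, a fibrillar collagen of bone, lay at -0.05 and -1.14 in Ezh1-null tamoxifen, 0.17 and 0.05 in Ezh1-null oil, -0.51 and -0.13 in Ezh1-present tamoxifen and 1.5 and 1.25 in Ezh1-present oil libraries. The Ezh1-present oil libraries were above the other 6, and the change with tamoxifen did not pass with Ezh1 present (-1.70 ± 0.37, adjusted p = 0.108) or lost (-0.71 ± 0.37).

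Ezh1-null tamoxifen cells, labelled as lacking both enzymes, were also set against Ezh1-present oil cells, labelled as having both. Col6a5, Col6a6 and Col6a4 were higher and Col17a1 and Col24a1 lower, 5 of 43 genes (11.6%), against 23.4% of all rows, 13.2% higher and 10.2% lower. Groups did not overlap in 11 genes that were higher (33.8% of all rows) and 13 that were lower (32.9% of all rows), and 10 had an unadjusted p under 0.05 (38.7% of all rows). Col6a5 had a reads ratio of 48.1 (95% exact interval 12.9 to 404, adjusted p of the fit = 0.00742) and was called without any 1 of the 8 libraries (0.0143 to 0.046). Col6a6 was at least 5.72-fold higher (adjusted p = 0.0118) and Col6a4 7.07-fold higher (log2 change 2.82 ± 0.53, adjusted p = 0.0214). Col17a1 was 4.60-fold lower (log2 change -2.20 ± 0.49, adjusted p = 0.0328) and Col24a1 3.92-fold lower (log2 change -1.97 ± 0.37, adjusted p = 0.0215). The calls of Col6a4 and Col24a1 ended without either Ezh1-present oil library (0.0985 and 0.0791 for Col6a4, 0.0997 and 0.0771 for Col24a1). That of Col6a6 ended without Ezh1-null tamoxifen replicate 1 (0.063) or either Ezh1-present oil library (0.0627 and 0.0588), and that of Col17a1 held only without Ezh1-null tamoxifen replicate 2 (0.0282, against 0.0592 to 0.135 without any other library). The count was 3 without Ezh1-null tamoxifen replicate 1 and 1 without either Ezh1-present oil library. This comparison shares libraries with those above, so its calls are not separate evidence.

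The other 17 genes were called in no comparison. They are Col2a1, Col5a1, Col5a3 and Col27a1 (fibrillar), Col14a1, Col20a1 and Col22a1 (FACIT), Col4a4 and Col4a5 (basement membrane), Col8a2 and Col10a1 (short chain), Col6a1 (beaded filament), Col7a1 and Col28a1 (anchoring fibril and von Willebrand A type), Col15a1 (multiplexin), and Col23a1 and Col25a1 (transmembrane). Col10a1, the collagen of hypertrophic cartilage, ranged from -1.61 in Ezh1-null oil replicate 1 to 2.10 in Ezh1-present tamoxifen replicate 2. Col2a1, the main fibrillar collagen of cartilage, reached 3.92 in the same library and did not pass 1.09 in any other. The steadiest were Col7a1 and Col20a1, with ranges of 0.56 and 0.57 over the 8 libraries. Those with a floor were low, with at most 4.64 normalized reads for Col4a4, 4.35 for Col8a2, 6.23 for Col28a1, 4.04 for Col22a1 and 7.12 for Col25a1.

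The rest of the collagen pathway was read from 5 lists of genes. Of 18 biosynthesis genes measured, loss of Ezh1 in oil called 4 higher and 1 lower, where 12.5% of all rows were higher and 12.4% lower. The lysyl hydroxylase and glycosyltransferase Plod3 (1.21 ± 0.12, adjusted p = 0.00406), the prolyl 3-hydroxylase Lepre1 (0.81 ± 0.11), the prolyl 4-hydroxylase subunit P4hb (0.56 ± 0.11) and the prolyl isomerase Ppib (0.34 ± 0.08) were higher, and the prolyl 4-hydroxylase P4ha2 was lower (-2.33 ± 0.20, adjusted p = 0.00353). After tamoxifen, where 6.77% of all rows were higher and 5.44% lower, Plod3 and Lepre1 were again higher, and P4ha2 and the prolyl 3-hydroxylase Leprel1 (-3.27 ± 0.73) lower. The lysyl hydroxylase Plod2, with -2.37 ± 0.98 after tamoxifen and -2.47 ± 0.98 in oil (adjusted p = 0.168 and 0.127), and Leprel4, with 1.77 ± 0.65 after tamoxifen (adjusted p = 0.135), did not pass, nor did Fkbp10 (0.99 ± 0.81 after tamoxifen). Plod3 lay at 0.33 and 0.39 in Ezh1-null tamoxifen, 0.50 and 0.72 in Ezh1-null oil, -0.33 and -0.42 in Ezh1-present tamoxifen and -0.68 and -0.52 in Ezh1-present oil libraries, so that the Ezh1 genotypes did not overlap.

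Of 13 genes that trim and cross-link collagen, 3 were lower and 0 higher in Ezh1-null oil cells (12.4% and 12.5% of all rows), the procollagen C-proteinase Bmp1 (-2.15 ± 0.21), the procollagen N-proteinase Adamts3 (-0.99 ± 0.13) and the lysyl oxidase Lox (-3.76 ± 0.92). After tamoxifen 13 of 13 changes were below 0, with Lox (-4.53 ± 0.92, adjusted p = 0.0397) and the proteinase Tll1 (at least 1.04-fold) called lower, against 5.44% of all rows. Lox lay at -1.86 and -2.82 in Ezh1-null tamoxifen, -3.95 and -1.17 in Ezh1-null oil, 2.32 and 2.06 in Ezh1-present tamoxifen and 1.17 and 1.24 in Ezh1-present oil libraries, with no overlap of the Ezh1 genotypes. With tamoxifen Bmp1 was higher in Ezh1-null cells (2.01 ± 0.21, adjusted p = 0.0143), as was the prolyl 3-hydroxylase Leprel2 (1.64 ± 0.16, adjusted p = 0.0129). Tll1 had 3.73 and 3.03 normalized reads in Ezh1-present tamoxifen libraries, 1.14 in Ezh1-null oil replicate 2 and was at the floor in the other 5 libraries. It was at least 1.27-fold higher with tamoxifen in Ezh1-present cells (adjusted p = 0.0242), a call that rests on a few reads and on floor values with no spread. Tll1 also entered the fit only because of its Ezh1-present tamoxifen libraries, where it is high. Its p values in comparisons with that group are therefore no separate support for a difference.

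Of 11 receptor genes, the integrin chain Itga1 (1.17 ± 0.23 after tamoxifen, 1.01 ± 0.23 in oil) and the inhibitory receptor Lair1 (0.93 ± 0.11 after tamoxifen, 1.00 ± 0.11 in oil) were called higher in both treatments, and the receptor kinase Ddr1 lower in oil (-1.85 ± 0.43). The shares of all rows called were 6.77% higher and 5.44% lower after tamoxifen and 12.5% higher and 12.4% lower in oil, and they also stand beside the counts that follow. The integrin chains Itga11 (-2.38 ± 0.97 in oil) and Itga2 (-2.99 ± 1.46 after tamoxifen) and the receptor kinase Ddr2 (-1.79 ± 0.86 after tamoxifen) did not pass. Of 9 genes that degrade collagen, the collagenase Mmp13 was lower after tamoxifen (-3.25 ± 0.43) and in oil (-4.15 ± 0.43), and the membrane proteinase Mmp14 8.01-fold higher in oil (adjusted p = 0.0298). The gelatinase Mmp9 did not pass, with 3.13 ± 0.76 after tamoxifen (adjusted p = 0.0582) and 2.80 ± 0.76 in oil (adjusted p = 0.0522). The part of the mature neutrophil markers, 5 of 6 of which were higher in oil, in the changes of Mmp9 and Mmp14 was not tested. Of 18 other matrix genes, 1 was higher (fibronectin, Fn1, 1.88 ± 0.16) and 1 lower (elastin, Eln, -2.38 ± 0.43) after tamoxifen. In oil 0 were higher and 3 lower, Eln (at least 6.41-fold), the laminin chain Lamc1 (-1.09 ± 0.15) and periostin, Postn (-2.22 ± 0.55). Bgn (-2.95 ± 0.87 after tamoxifen) and Nid2 (0.77 ± 0.34 after tamoxifen, 0.58 ± 0.34 in oil) did not pass. With tamoxifen, Fn1 rose 4.57-fold in Ezh1-null cells (log2 change 2.19 ± 0.16, adjusted p = 0.00701), at 2.08 and 2.15 in tamoxifen against -0.01 and -0.14 in oil libraries.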

How the data were processed

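Gene-level RNA sequencing values of 8 libraries in 4 groups of 2 were used, grouped by the genotype and treatment labels. Per the file headers, the authors kept genes between the 20th and the 100th percentile of their raw values and deposited normalized values and log2 fold changes. The deposited values are on a log2 scale, centred on each gene's median, with a floor of 1 normalized read. A lowest value shared by 2 or more libraries (tolerance 2e-06) was read as the floor. Each deposited log2 fold change equalled the difference of group means to within 5.4e-07. The build is mm10 per the submitters' processing notes. The sources used here name no aligner, counter or scaling. Depth is known only as the normalized value of 1 read, at which 70.4% to 80.7% of low values lay within 0.01 of whole reads, and 50 of 62 low collagen values within 0.02. Reads without molecular identifiers are not independent molecules, so limits and intervals cover counting error only.

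The 18051 of 31574 rows in which 2 or more libraries exceed the floor were fitted with limma 3.58.1 (R 4.3.3), 1 coefficient per group, all 8 libraries, no block, empirical Bayes without trend (residual df 4, prior df 1.24) and Benjamini-Hochberg adjustment, and the fit was tested on simulated data. With a group at the floor, folds are limits against 3 reads per library. Collagen genes given in full (26) were those called, the 4 largest changes each way without overlap in a comparison, and Col1a1, Col1a2, Col3a1, Col4a1, Col4a2 and Col18a1. Members and gene lists were chosen with earlier results of these data known. Alternatives were 2 other scalings, 2 other filters, robust priors, separate priors, only the groups compared, a replicate block, and each library left out. Python 3.11.15 with pandas 2.3.3, scipy 1.17.1 and matplotlib 3.10.9 made tables and figures. RefSeq start windows (GRCm38.p6) were read by symbol. The authors' shorter list, genes changed at least 2-fold, was not used.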

Additional observations from a re-analysis of the deposited data

Results flagged for a closer look

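Col13a1 is the 1 gene of the 43 whose tamoxifen change differed between the Ezh1 genotypes in the limma fit, by 4.90 ± 0.28 on the log2 scale (adjusted p = 0.0105 over 18051 rows, where 0.476% of rows were called). It was higher after tamoxifen in 2 of 2 Ezh1-null libraries and lower in 2 of 2 Ezh1-present libraries than in either oil library of the same genotype. The size depends on the Ezh1-null oil group, where both libraries lie at the floor, and is 3.07 with that group set at 3 reads per library. These tied values have no spread, so the SE and adjusted p can be too small. The call ended without Ezh1-null oil replicate 1 (adjusted p = 0.0521), without Ezh1-present oil replicate 1 (0.0515), without both Ezh1-present oil replicate 1 and Ezh1-present tamoxifen replicate 2 (adjusted p = 0.0824) and with separate variance priors (0.0791).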

How the results depend on the processing

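Over 17 alternatives (16 for the difference between tamoxifen changes), 170 of 202 counts and medians stayed within 1.5 times or within the replicate spread, and of 815 single-gene results 669 kept their side of the threshold, 134 lost the call, 12 gained it and 0 turned direction. Leaving out 1 library gave 0 to 1 calls for tamoxifen in Ezh1-present cells, 1 to 8 for Ezh1 loss in oil, 0 to 3 for Ezh1 loss after tamoxifen, 0 to 1 for the difference between tamoxifen changes (median change -0.65 to 0.32) and 1 to 6 for Ezh1-null tamoxifen against Ezh1-present oil. With only the groups compared, Ezh1 loss gave 6 calls in oil and 0 after tamoxifen, and Ezh1-null tamoxifen against Ezh1-present oil 2. Quantile normalization gave 12 calls for Ezh1 loss after tamoxifen and 8 for Ezh1-null tamoxifen against Ezh1-present oil. Without both Ezh1-present oil replicate 1 and Ezh1-present tamoxifen replicate 2, chosen after seeing the data, the counts were 3 in oil, 1 after tamoxifen, 0 for the difference and 1 for Ezh1-null tamoxifen against Ezh1-present oil. Separate variance priors for rows with and without a floor, also added later, ended the Col13a1 difference (0 calls). The planned variance trend could not be fitted. The causes were not tested.

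Replicate numbers gave no sign that libraries were paired, though low correlations cannot show that they were not. Replicate differences of 2 groups correlated at -0.06 to 0.08 across 18051 genes, which are not independent replicates. With a replicate block the counts were 6 for Ezh1 loss in oil, 3 after tamoxifen, 4 for Ezh1-null tamoxifen against Ezh1-present oil, 1 for tamoxifen in Ezh1-null cells, 0 in Ezh1-present cells and 0 for the difference, where Col13a1 had an adjusted p of 0.0595. Depth limits the 13 genes with a floor, 6 of which had under 10 normalized reads in every library.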
